A study of Mus musculus with 12 samples.

Results

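Transcripts of adult hemoglobin, and of 2 further genes known from red cells, were followed in the medial prefrontal cortex (mPFC) of mice after nerve injury. The set has 6 genes of the 34745 in the deposited table. Hba-a1 and Hba-a2 encode the adult alpha chain of hemoglobin, Hbb-bs and Hbb-bt its adult beta chain, Alas2 the first enzyme of heme synthesis in red cell precursors, and Ackr1 an atypical chemokine receptor. The members were chosen by name, and Ackr1 because its counts take 2 separated levels, so its levels are given as a description without a test. All 6 passed the filter on low counts.

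The libraries were made from wild-type male mice at day 28. Contralateral libraries hold the right mPFC of mice with chronic constriction injury (CCI), a model of neuropathic pain in which ligatures are tied loosely around the sciatic nerve. Ipsilateral libraries hold the left mPFC of CCI mice, on the side of the operation. Naive libraries hold mPFC of untreated, habituated mice, with the hemisphere not given. There were 4 libraries in each group, 12 in all, from bulk tissue. Contralateral and ipsilateral libraries that carry the same number were read as the 2 sides of 1 mouse, which the library codes show but the labels do not state. The labels give no sham operation, strain, age, pooling or perfusion, so the operation and the nerve injury cannot be told apart.

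Hemoglobin is a tetramer of a pair of alpha and a pair of beta chains, each with a heme group. The alpha genes lie together in one cluster and the beta genes in another, beside embryonic members that are silent in the adult. Red cell precursors fill themselves with these transcripts, and the youngest red cells in the circulation still carry some after the nucleus is lost. Some neurons have also been described to contain alpha and beta globin RNA. ALAS2 joins glycine and succinyl-CoA in mitochondria, and the other tissues use ALAS1 for the same step. ACKR1 binds many inflammatory chemokines without signalling through G proteins, and it sits on red cells and on the endothelium of venules.

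The alpha genes, and likewise the beta genes, are near copies, which bears on every value below. Hba-a1 (ENSMUSG00000069919; chromosome 11, 32283511 to 32284465, plus strand, GRCm38) and Hba-a2 (ENSMUSG00000069917; chromosome 11, 32296489 to 32297298, plus strand) differ at 1 of 429 coding bases in the GENCODE M21 transcripts. The substitution is C381T, with the base of Hba-a1 first and counted from the first base of the start codon, and it leaves the protein of 142 amino acids unchanged. Hbb-bs (ENSMUSG00000052305; chromosome 7, 103826534 to 103828096, minus strand) and Hbb-bt (ENSMUSG00000073940; chromosome 7, 103812524 to 103813996, minus strand) differ at 1 of 444 coding bases, C417T with the base of Hbb-bs first, and encode the same 147 amino acids. The stretches around these bases are shown because they are the coding sequence by which a read can be given to one copy, with the differing base in capitals:
Hba-a1 (coding bases 351 to 410, chr11:32284313-32284372, plus strand): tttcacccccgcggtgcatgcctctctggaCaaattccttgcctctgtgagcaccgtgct
Hba-a2 (coding bases 351 to 410, chr11:32297130-32297189, plus strand): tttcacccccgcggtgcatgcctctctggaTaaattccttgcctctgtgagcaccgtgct
Hbb-bs (coding bases 387 to 444, chr7:103826665-103826722, minus strand): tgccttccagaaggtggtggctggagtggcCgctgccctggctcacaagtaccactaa
Hbb-bt (coding bases 387 to 444, chr7:103812656-103812713, minus strand): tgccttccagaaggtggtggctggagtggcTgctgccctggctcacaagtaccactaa

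The longest stretch that both alpha transcripts share without a difference ran to 415 bases, and that of the beta transcripts to 430 bases. How the authors' counting shared reads between copies is not given in the sources used here. The division of counts within each pair is therefore uncertain, and the sum over a pair is too where such reads were dropped or counted at both copies.

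The upstream sequences of the alpha pair were alike to the same degree. In the RefSeq windows, 250 bases before to 50 after each start, Hba-a1 and Hba-a2 were identical over 297 bases once moved by 3 bases. Motifs of erythroid promoters were searched in the 250 bases before each start: the GATA motif (GATA with A or T before it and A or G after it), the CACC motif (CACCC with A or C before it) and CCAAT on both strands, and the TATA motif (TATAA) on the gene strand. The window of Hba-a2 holds all of them and is shown because it stands for both alpha genes, with matches in capitals (chr11:32296242-32296491, plus strand, GRCm38.p6):
Hba-a2: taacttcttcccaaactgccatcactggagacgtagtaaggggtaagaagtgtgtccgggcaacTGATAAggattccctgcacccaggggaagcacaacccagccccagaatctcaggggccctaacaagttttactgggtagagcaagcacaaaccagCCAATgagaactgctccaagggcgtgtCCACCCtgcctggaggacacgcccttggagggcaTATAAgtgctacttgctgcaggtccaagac

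From left to right these matches begin at -186 (GATA), -91 (CCAAT), -64 (CACC) and -30 (TATA) from the RefSeq start. Of 32851 mouse promoters of the same length, 26.5% held a GATA match, 33.8% CCAAT, 37.6% CACC and 16.0% TATA. Hbb-bs had CACC, CCAAT and TATA matches at -91, -76 and -29, and Hbb-bt had such matches at -90, -75 and -28. Hbb-bs also had a GATA match at -210, and the window of Hbb-bt held none of the searched GATA letters. A stretch of 30 bases from the CACC match nearest to the start shows where the beta promoters differ, with a second CCAAT match on the other strand (ATTGG) in Hbb-bt:
Hbb-bs (from -91, chr7:103827990-103828019, minus strand): ACACCCtggtaagggCCAATctgctcacac
Hbb-bt (from -90, chr7:103813984-103814013, minus strand): ACACCCtggcATTGGCCAATctgctcagag

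Alas2 (ENSMUSG00000025270; chromosome X, 150547375 to 150570638, plus strand) had a GATA match at -86, read as TTATCT, and a TATA match at -207. It had 3 overlapping CACC matches at -40, -35 and -30, which lie past the end of the 208 bases shown. These bases reach up to the GENCODE gene model and are printed because they hold such a GATA match on the other strand (chrX:150547167-150547374, plus strand, GRCm38.p6):
Alas2: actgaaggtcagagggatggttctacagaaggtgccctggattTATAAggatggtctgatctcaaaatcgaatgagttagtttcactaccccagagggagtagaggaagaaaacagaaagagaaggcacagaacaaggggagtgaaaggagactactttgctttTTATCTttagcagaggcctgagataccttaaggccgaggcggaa

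Ackr1 (ENSMUSG00000037872; chromosome 1, 173331886 to 173333750, minus strand) had CACC matches at -81 and -24 and no GATA match before its start. One lay just after it, at +26, and 29.8% of promoters held a GATA match within the whole window of 300 bases. The 30 bases around it are shown because the human ACKR1 promoter is known for a GATA site needed in red cells (chr1:173333461-173333490, minus strand):
Ackr1: agccctgggcacTTATCTtggagccacagc
A match is a description of letters and not of a bound site.

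Levels are given as CPM, the count as a share of the library's total in parts per mega-count, after TMM scaling, which evens out composition between libraries. The libraries held 16.1 to 20.6 mega-counts. Between genes, levels were compared per kilobase of exon. On this scale Hbb-bs had the highest mean level, at 32.6 CPM per kilobase in contralateral, 27.6 in ipsilateral and 35.3 in naive libraries. Hba-a1 came next with means of 13.4, 9.70 and 12.7 CPM per kilobase in the same groups. Hba-a2 had 9.09, 7.30 and 10.5, Hbb-bt 6.15, 5.28 and 7.39, and Alas2 0.882, 0.791 and 1.02 CPM per kilobase. This order held for the means of all 3 groups, with the caveat on near copies given above. It also rests on the gene lengths used. In the deposited FPKM, a level per length that uses other lengths for some genes, Hbb-bt lay above Hba-a2 in all 3 groups. The FPKM means were 6.18 against 5.83 in contralateral, 5.22 against 4.60 in ipsilateral and 7.40 against 6.67 in naive libraries. The length behind the FPKM was 1048 bases for Hba-a2, against 667 exon bases, while Hbb-bt had 703 bases on both scales. The mean of Ackr1 per kilobase has no use as a level, since 1 library of each group makes up most of it.

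Summed over the 4 hemoglobin genes, the libraries held 505 to 1060 counts each. The sum was 39.5, 31.6, 55.5 and 58.7 CPM in contralateral libraries 1 to 4. It was 36.5, 39.1, 39.4 and 35.5 CPM in ipsilateral libraries 1 to 4, and 41.2, 58.2, 39.6 and 59.2 CPM in naive libraries 1 to 4. Contralateral 3 and 4 and naive 2 and 4 lay at 55.5 CPM or above, and the other 8 libraries at 41.2 CPM or below. No ipsilateral library was among the high ones, and every ipsilateral library lay below every naive one. The nearest were at 39.4 against 39.6 CPM, from 685 and 663 counts, a gap within counting error. Such a split, lower without overlap, was seen in 2.77% of all tested genes, and among the tested members only in Hbb-bs. Means ± SD (n = 4 a group) were 46.3 ± 12.9 CPM contralaterally, 37.6 ± 1.95 CPM ipsilaterally and 49.6 ± 10.6 CPM in naive mice.

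**Figure D1:**
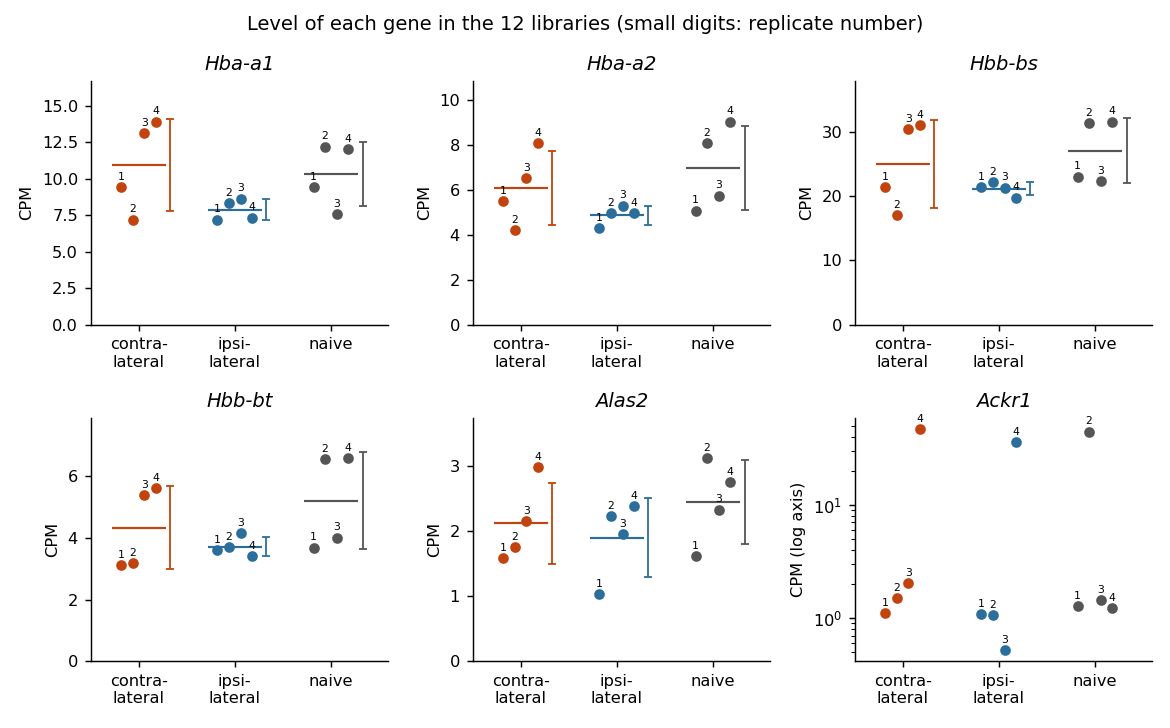
CPM of each gene in contralateral, ipsilateral and naive libraries, 4 points a group with the replicate number above each point. Horizontal lines are means and bars at their right are SD; Ackr1 has a log axis and no mean. Contralateral 3 and 4 and naive 2 and 4 are the high points of the hemoglobin panels, and Ackr1 stands above 35 CPM in contralateral 4, ipsilateral 4 and naive 2.

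The alpha genes followed this pattern. Hba-a1 had 9.43, 7.19, 13.1 and 13.9 CPM in contralateral, 7.20, 8.34, 8.63 and 7.33 CPM in ipsilateral, and 9.42, 12.2, 7.59 and 12.02 CPM in naive libraries 1 to 4. Its contralateral and ipsilateral ranges overlapped through contralateral 2, the lowest library of all 12. Hba-a2 had 5.48, 4.19, 6.51 and 8.08 CPM in contralateral, 4.28, 4.95, 5.29 and 4.95 CPM in ipsilateral, and 5.07, 8.07, 5.74 and 9.03 CPM in naive libraries. Its highest ipsilateral value lay above its lowest naive value, 5.29 against 5.07 CPM.

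Of the beta genes, Hbb-bs gave 272 to 562 counts a library. It had 21.4, 17.0, 30.5 and 31.1 CPM in contralateral, 21.4, 22.2, 21.3 and 19.8 CPM in ipsilateral, and 23.0, 31.4, 22.3 and 31.6 CPM in naive libraries. The ipsilateral and naive ranges of Hbb-bs did not overlap, at 19.8 to 22.2 against 22.3 to 31.6 CPM. The gap lies within counting error, which is 4.68% in ipsilateral 2 and 5.18% in naive 3, the nearest libraries. Hbb-bs was 1 of the 5 members tested. Of all tested genes, 2.77% lay lower in ipsilateral than in naive libraries without overlap. Hbb-bt had 3.13, 3.19, 5.38 and 5.59 CPM in contralateral, 3.60, 3.69, 4.14 and 3.41 CPM in ipsilateral, and 3.68, 6.54, 4.01 and 6.56 CPM in naive libraries. It split into the same high and low libraries as Hbb-bs.

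In each of the 4 hemoglobin genes, ipsilateral libraries were more alike than those of the other groups, which was not so for Alas2 or Ackr1. For Hbb-bs the coefficient of variation between libraries was 27.7% in contralateral, 4.73% in ipsilateral and 18.8% in naive libraries. Counting error alone gives 5.08% at the mean ipsilateral count of Hbb-bs, so its ipsilateral libraries differed no more than counting allows. Over all groups, the SD of log2 CPM within groups was 0.29 for Hbb-bs and 0.32 for Hba-a1, against 0.16 for the median tested gene. It was 0.33 for Hba-a2, 0.37 for Hbb-bt and 0.43 for Alas2, and the Hba-a2 value already lay above 80.8% of tested genes.

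**Figure D2:**
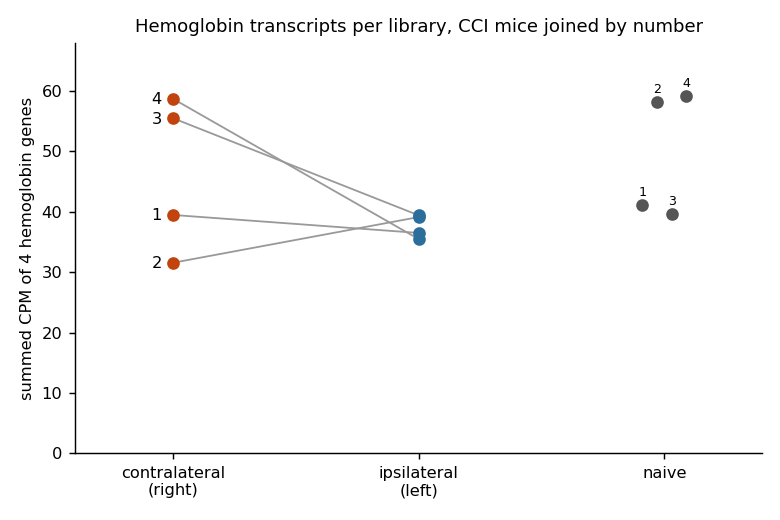
Summed CPM of the 4 hemoglobin genes, with contralateral and ipsilateral libraries of the same number joined by a line and naive libraries at the right. The contralateral library is above the ipsilateral one for numbers 1, 3 and 4 (58.7 against 35.5 CPM for number 4) and below it for number 2.

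Between the sides of single CCI mice the log2 ratio of the sum, contralateral over ipsilateral, was 0.11, -0.31, 0.49 and 0.73 in mice 1 to 4. Mouse 2 thus had the lower sum on the contralateral side and the other mice the higher one. Hba-a1, Hba-a2 and Alas2 shared these signs in each mouse. Hbb-bs did too, though with 0.0011 in mouse 1, and Hbb-bt had -0.20 in mouse 1. Of all tested genes, 12.5% were higher contralaterally in mice 1, 3 and 4 and lower in mouse 2.

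Alpha and beta counts kept a narrow ratio. It was 0.579 ± 0.028 alpha counts per beta count in contralateral, 0.512 ± 0.038 in ipsilateral and 0.534 ± 0.019 in naive libraries (SD, n = 4 each). The lowest of all 12 was 0.459 in ipsilateral 1 and the highest 0.607 in contralateral 1. Every contralateral library lay above every ipsilateral one in this ratio, the nearest at 0.548 against 0.546. That gap is far smaller than counting error, which is 5.08% for Hbb-bs alone at its mean ipsilateral count. The separation is a description of counts already in view and was not tested. Hbb-bs took 82.8% to 87.3% of the beta counts and Hba-a1 took 57.0% to 66.9% of the alpha counts over the 12 libraries.

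**Figure D3:**
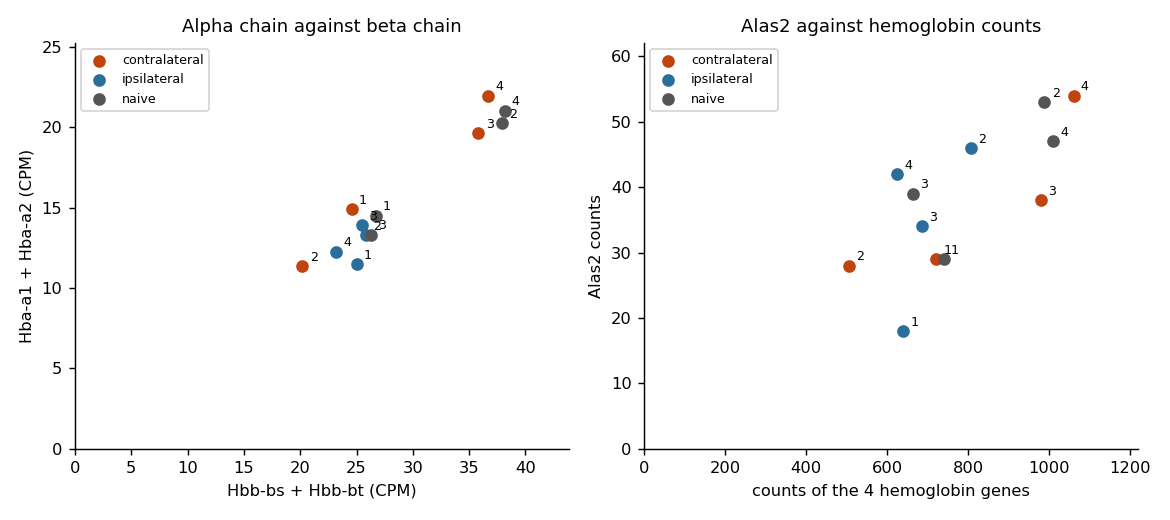
Left, summed CPM of the alpha genes against summed CPM of the beta genes, and right, Alas2 counts against counts of the 4 hemoglobin genes, with 1 point a library, coloured by group and numbered by replicate. Contralateral 3 and 4 and naive 2 and 4 form the upper group at left, and Alas2 counts run from 18 in ipsilateral 1 to 54 in contralateral 4.

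Alas2 was counted 18 to 54 times a library. It had 1.59, 1.75, 2.15 and 2.99 CPM in contralateral, 1.03, 2.23, 1.96 and 2.39 CPM in ipsilateral, and 1.62, 3.12, 2.33 and 2.75 CPM in naive libraries. All 3 groups overlapped. There were 4.64 ± 0.813 Alas2 counts per 100 hemoglobin counts in contralateral, 5.05 ± 1.66 in ipsilateral and 4.96 ± 0.853 in naive libraries (SD, n = 4 each). At the mean counts of Alas2, counting error alone gives 15.4% to 16.9%, against 26.3% to 32.0% between libraries. The model of Apex2, a DNA repair endonuclease gene on the opposite strand, spans Alas2 in GENCODE M21 and shares 311 exon bases with it. Apex2 had 2.33 to 6.21 CPM, and whether counting used strand is not given, so reads in the shared bases cannot be told apart.

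The tests compared 15808 genes over the 12 libraries, with edgeR's quasi-likelihood test and Benjamini-Hochberg adjustment over all of them, and none of the 5 tested members passed in any comparison at an adjusted p of 0.05. Of all tested genes 0% passed in either direction in each comparison. At an unadjusted p under 0.05 the counts were 597 for contralateral minus naive, 763 for ipsilateral minus naive and 1322 for contralateral minus ipsilateral. Limma voom passed 0 genes in each, and DESeq2 passed 3, 9 and 0, none of them a member. A pooled spread over 3 groups of 4 libraries lies behind each value, and p-values measure the spread between these libraries.

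Ipsilateral libraries were first set against naive ones. Log2 fold changes were -0.39 (SE 0.20) for Hba-a1, -0.52 (SE 0.21) for Hba-a2, -0.35 (SE 0.18) for Hbb-bs, -0.48 (SE 0.24) for Hbb-bt and -0.36 (SE 0.28) for Alas2. All 5 were below 0, with a median of -0.39, where 50.1% of all tested genes were below 0. The adjusted p was 0.972 for each member by edgeR. Hba-a2 had the smallest unadjusted p, 0.0271, and 2.96% of tested genes were lower at an unadjusted p under 0.05. Without ipsilateral 1 the value for Alas2 was -0.16, and without naive 2 it was -0.23. As ratios of mean CPM, ipsilateral over naive, the values were 0.764 for Hba-a1, 0.698 for Hba-a2, 0.782 for Hbb-bs, 0.714 for Hbb-bt and 0.774 for Alas2.

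Contralateral against naive libraries, log2 fold changes were smaller in size for every member. They were 0.085 (SE 0.20) for Hba-a1, -0.20 (SE 0.21) for Hba-a2, -0.11 (SE 0.18) for Hbb-bs, -0.26 (SE 0.23) for Hbb-bt and -0.21 (SE 0.28) for Alas2, each with an edgeR adjusted p of 1.00. The values of 4 members were below 0, where 49.9% of tested genes were. The sign for Hba-a1 turned to -0.010 without contralateral 3, to -0.049 without contralateral 4 and to -0.036 without naive 3. That for Hbb-bs turned to 0.037 without contralateral 2. Over single left-out libraries Hba-a2 ranged from -0.36 to -0.043, Hbb-bt from -0.41 to -0.12 and Alas2 from -0.42 to -0.070. This comparison and the previous one share the naive libraries.

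**Figure D4:**
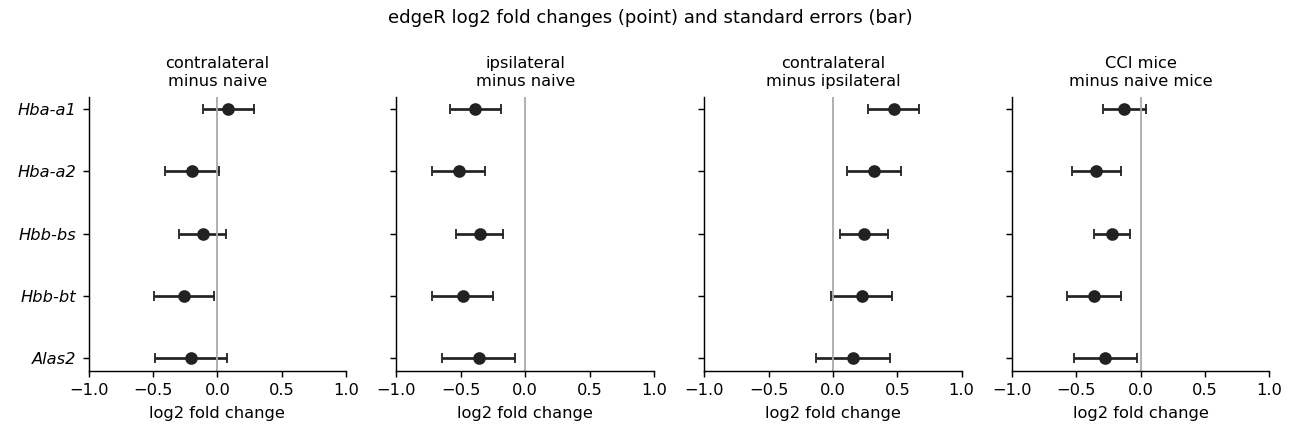
Log2 fold changes by edgeR (points) with SE (bars) for the 5 tested members in 4 comparisons, the first-named group being the numerator. All 5 points lie below 0 for ipsilateral minus naive (-0.52 to -0.35) and above 0 for contralateral minus ipsilateral (0.16 to 0.47), and none passed the test.

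Contralateral against ipsilateral libraries, log2 fold changes were 0.47 (SE 0.20) for Hba-a1, 0.32 (SE 0.21) for Hba-a2, 0.24 (SE 0.18) for Hbb-bs, 0.22 (SE 0.24) for Hbb-bt and 0.16 (SE 0.28) for Alas2. All 5 were above 0, as were 51.1% of tested genes. Hba-a1 had an unadjusted p of 0.0345 and an edgeR adjusted p of 0.592, where 4.58% of tested genes were higher at an unadjusted p under 0.05. Contralateral 2, the library lowest in hemoglobin, weighed on this comparison. Without it 159 genes passed, none of them a member, and the log2 fold change of Hba-a1 was 0.63 (SE 0.17, edgeR adjusted p 0.0818). Without contralateral 4 the values were 0.34 for Hba-a1, 0.15 for Hba-a2, 0.12 for Hbb-bs and 0.076 for Hbb-bt. Without contralateral 3 they were 0.14 for Hbb-bs and 0.10 for Hbb-bt. The value for Alas2 turned to -0.057 without contralateral 4 and to -0.042 without ipsilateral 1.

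With both sides of each CCI mouse summed and set against naive mice, log2 fold changes were -0.13 (SE 0.17) for Hba-a1, -0.34 (SE 0.19) for Hba-a2, -0.22 (SE 0.14) for Hbb-bs, -0.37 (SE 0.21) for Hbb-bt and -0.28 (SE 0.24) for Alas2. The edgeR adjusted p was 1.00 for each of the 5 over 16179 tested genes, of which 0% passed, 679 had an unadjusted p under 0.05 and 49.7% were below 0. DESeq2 passed 31 genes and limma voom 0, none of them a member. All 5 members were below 0. Leaving out 1 mouse gave -0.25 (without naive 3) to -0.038 (without naive 2) for Hba-a1 and -0.47 to -0.19 (without naive 4) for Hba-a2. It gave -0.30 to -0.14 for Hbb-bs and -0.50 to -0.23 for Hbb-bt, with the smallest sizes without naive 4. For Alas2 it gave -0.45 (without CCI mouse 4) to -0.12 (without CCI mouse 1).

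The other genes of the globin clusters were nearly silent. Hba-x, Hbb-bh0, Hbb-bh1 and Hbb-bh2, embryonic or pseudogene members of the clusters, had a count of 0 in all 12 libraries. Hbq1a, the theta-like gene beside Hba-a2, reached 0.242 to 0.805 CPM, with a log2 fold change of -0.51 (SE 0.36) for ipsilateral minus naive. Neuroglobin (Ngb), the neuronal globin, ranged from 1.19 to 6.59 CPM, and cytoglobin (Cygb), which fibroblast-like cells carry, from 42.7 to 55.8 CPM. Neither Ngb nor Cygb passed in any comparison.

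Of the listed red cell membrane genes and erythroid regulators, those most restricted to red cells and their precursors were at or near 0. They are named for these low values. Rhag (Rh-associated glycoprotein) and the erythroid regulators Nfe2 and Gfi1b had a count of 0 in every library. Slc4a1, the anion exchanger of the red cell membrane, had 11 counts over all libraries and at most 0.221 CPM. Over all libraries Kel had 1 count, Hemgn 1, Gata1 2 and Epb42 5. Klf1, the activator of beta globin, had 23 counts in all and at most 0.283 CPM.

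Other members of the membrane list were detected. Gypc (glycophorin C) reached 0.938 to 2.74 CPM, Ermap 0.439 to 2.10 CPM and Aqp1, a water channel, 0.177 to 1.08 CPM. Others were far more abundant. Sptb had 161 to 230 CPM, Slc2a1 70.5 to 105 CPM and Ank1 45.1 to 95.7 CPM. Epb41 had 41.3 to 62.3 CPM and Xk 22.7 to 32.8 CPM. Tfrc, the most abundant of the erythroid regulators and late erythroid genes, had 139 to 176 CPM. Of 16 listed red cell membrane and cytoskeleton genes, 8 besides Ackr1 had counts high enough to test, and none passed. Their median log2 fold change for ipsilateral minus naive was 0.084, with 6 of 8 above 0. Epb41 (protein 4.1) had 0.24 (SE 0.11) and Ank1 (ankyrin) 0.26 (SE 0.16) there. Of 10 tested erythroid regulators and late erythroid genes, 5 were above and 5 below 0. Epor, the erythropoietin receptor, had 0.39 (SE 0.21) and Tal1 -0.46 (SE 0.33) for ipsilateral minus naive.

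The rest of heme synthesis stayed close to 0. Of 12 tested genes beside Alas2, none passed, and the median log2 fold change was 0.0054 for contralateral minus naive, -0.025 for ipsilateral minus naive and 0.049 for contralateral minus ipsilateral. Uros (uroporphyrinogen III synthase) had -0.37 (SE 0.13) for ipsilateral minus naive, with an unadjusted p of 0.0165 and an edgeR adjusted p of 0.972. Alas1, the form used outside red cells, had 0.10 (SE 0.065) in that comparison. Among 11 genes of heme and hemoglobin breakdown the medians were 0.020, 0.0019 and -0.011 in the same order. Cd163, the macrophage receptor that takes up hemoglobin bound to haptoglobin, had -1.05 (SE 0.40) for ipsilateral minus naive and an edgeR adjusted p of 0.972.

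Markers of vessels and of the brain surface were measured beside the hemoglobin genes. None of their members passed in any comparison. Of 17 tested meningeal and fibroblast markers, 16 were below 0 for ipsilateral minus naive, with a median of -0.54, and 16 were above 0 for contralateral minus ipsilateral, with a median of 0.58. Their summed level was 214 to 374 CPM in contralateral, 182 to 269 CPM in ipsilateral and 272 to 320 CPM in naive libraries. Of 13 mural cell markers, 11 were below 0 for ipsilateral minus naive (median -0.15), and their summed level was 274 to 399, 278 to 313 and 306 to 341 CPM in the same groups. The 4 libraries high in hemoglobin had the 4 highest mural sums. The meningeal sum followed hemoglobin less closely. Ipsilateral 3, the highest ipsilateral library in hemoglobin, had 206 CPM, and naive 2 had 280 against 285 CPM in naive 3. Arterial and venous endothelial sums did not keep the hemoglobin order either, though contralateral 4 was highest in both. Contralateral 1, low in hemoglobin, reached 147 CPM in the arterial sum, above naive 2 with 134 CPM. For the venous and venular list without Ackr1, contralateral 1 (187 CPM) and ipsilateral 2 (185 CPM) exceeded contralateral 3 (170 CPM) and naive 4 (167 CPM). This order turned without Tmsb10, the most abundant gene of the list, left out after its values were seen. Contralateral 3 then had 92.2 and naive 4 85.8 CPM, against 84.8 CPM in contralateral 1 and 81.2 CPM in ipsilateral 2. Contralateral 1 still exceeded naive 2, with 82.8 CPM.

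Of 19 pan and capillary endothelial genes, 16 were below 0 for ipsilateral minus naive (median -0.096) and 17 above 0 for contralateral minus ipsilateral (median 0.12). Their summed level was 1757 to 1784, 1770 to 1877 and 1748 to 1824 CPM, of which Spock2, which had a contralateral minus ipsilateral value of -0.10, took 1136 to 1346 CPM. Without Spock2, left out after its values were seen, the other 18 genes summed to 502, 488, 615 and 647 CPM in contralateral, 531, 508, 518 and 490 CPM in ipsilateral, and 525, 583, 505 and 560 CPM in naive libraries 1 to 4. The 4 libraries high in hemoglobin were the 4 highest in this sum, but not in that of the whole list. There contralateral 3, high in hemoglobin, had 1757 CPM, and ipsilateral 1, low in hemoglobin, had 1877 CPM. The match thus rests on leaving out Spock2, and it was not tested. Of 22 white blood cell and platelet markers, 3 were tested and Mmp8 and Ly6c2 were at 0 throughout. The list summed to 7.38 to 13.2, 7.73 to 10.6 and 9.09 to 10.8 CPM. Excitatory neuron markers, which define the tissue, summed to 5343 to 6760 CPM over the libraries. The part of vessels, meninges or blood volume in the hemoglobin values was not tested. In such bulk samples fewer cells of a type and less RNA per cell cannot be told apart.

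A hemoglobin pattern was taken as the mean log2 CPM of the 4 hemoglobin genes, each first centred on its own mean. Among 14063 genes, those most like this pattern over the 12 libraries, by Pearson's r, were C1qb (0.963), Sox12 (0.931), Adgrl4 (0.929), Stk10 (0.914) and Srrd (0.908). C1qb encodes a chain of complement C1q made by microglia, and Adgrl4 an adhesion receptor of endothelium. C1qb had 33.5, 29.1, 38.4 and 39.9 CPM in contralateral, 32.0, 30.3, 31.3 and 30.01 CPM in ipsilateral, and 32.7, 41.4, 32.7 and 38.9 CPM in naive libraries 1 to 4. Its high libraries were those of hemoglobin. Alas2, from the same red cell program, had an r of 0.698 with the hemoglobin pattern. These are the highest of many values over libraries that share depth and dissection, and they are given without a p.

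Ackr1 split the libraries in another way. It had 20, 24, 36 and 847 counts in contralateral, 19, 22, 9 and 631 counts in ipsilateral, and 23, 753, 24 and 21 counts in naive libraries 1 to 4. In CPM, contralateral 4 had 46.9, ipsilateral 4 had 35.9 and naive 2 had 44.3, and the other 9 libraries had 0.518 to 2.04. The lowest high library stood 17.6 times above the highest low one, with none between. The high CCI libraries carry the same number, 4, on both sides, so that they would be 1 CCI mouse and 1 naive mouse of the 8. Each group thus had 3 low and 1 high library, and the level did not go with the operation or the side.

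Its within-group SD of log2 CPM, 2.53, lay above that of 99.97% of tested genes. The values chose this gene and support nothing further. Of the high Ackr1 libraries, contralateral 4 and naive 2 were also high in hemoglobin, and ipsilateral 4 had the lowest ipsilateral hemoglobin sum at 35.5 CPM. The venous and venular endothelial list, without Ackr1, summed to 198 CPM in contralateral 4, 160 in ipsilateral 4 and 175 in naive 2. The other 9 libraries had 140 to 187 CPM, so that contralateral 4 lay above them and the other high Ackr1 libraries within their range. Selp (P-selectin), another gene of venules, had 1 count over all 12 libraries. It does not stand for its list, of which 9 genes besides Ackr1 had counts enough to test. Among these, Vcam1 ranged from 17.2 to 31.4 CPM and Nr2f2 from 5.37 to 8.97 CPM. Tmsb10, the most abundant gene of the list, took 61.9 to 110 CPM of the sum.

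**Figure D5:**
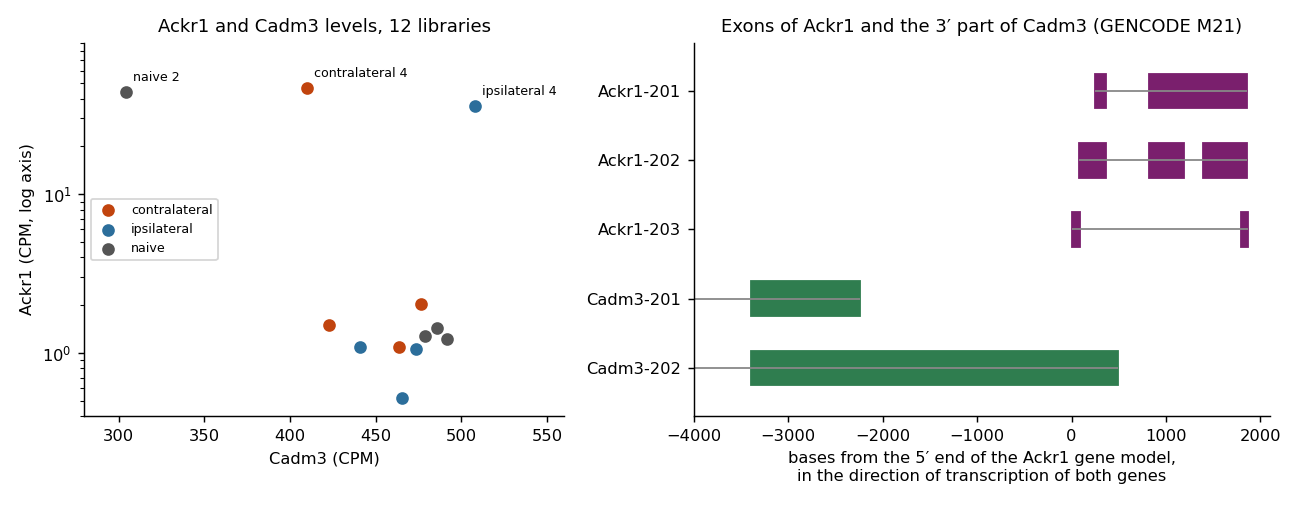
Left, Ackr1 CPM (log axis) against Cadm3 CPM in the 12 libraries, coloured by group; the 3 high libraries lie above 35 CPM at Cadm3 levels of 304, 410 and 508 CPM. Right, exons (boxes) of Ackr1 and of 2 Cadm3 models, whose 5′ parts lie further left; the last exon of the longer Cadm3 model runs into Ackr1.

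Ackr1 lies directly after Cadm3, a neuronal adhesion gene, on the same strand. Cadm3 (ENSMUSG00000005338; chromosome 1, 173333258 to 173367695, minus strand) has a longer transcript model that ends 2729 bases past the end of a shorter one and shares 361 of the 1405 exon bases of Ackr1. Cadm3 is far more abundant. It had 464, 423, 476 and 410 CPM in contralateral, 441, 473, 465 and 508 CPM in ipsilateral, and 479, 304, 486 and 491 CPM in naive libraries 1 to 4. Of the high Ackr1 libraries, naive 2 had the lowest and ipsilateral 4 the highest Cadm3 level of all 12. Ackr1 counts were 11.4, 7.06 and 14.6 per 100 Cadm3 counts in contralateral 4, ipsilateral 4 and naive 2, and 0.111 to 0.428 elsewhere. Reads in the shared bases cannot be told apart by strand, and the counts give no position within the gene.

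The gene most like Ackr1 over the 12 libraries was Slc25a22, a mitochondrial glutamate carrier on chromosome 7 (141429744 to 141437892), with a Pearson's r of 0.947. It had 259 CPM in contralateral 4, 294 in ipsilateral 4 and 256 in naive 2, and 99.7 to 127 CPM in the other 9 libraries, so that it stood apart in the same 3. Trmt2a (0.856), Per2 (0.838), Hdac6 (0.836) and Ccdc117 (0.830) followed, with smaller differences. Per2, a clock gene, had 53.1, 48.8 and 44.6 CPM in the 3 high libraries against 37.8 to 43.2 CPM elsewhere. These values describe the split and were not tested.

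Among receptors and ligands around ACKR1, Ackr4 and the listed chemokines were scarce. Ackr2 had 1.73 to 3.15 CPM and Ackr3 8.22 to 15.01 CPM, and neither passed in any comparison, while Ackr4 stayed at or under 0.171 CPM. None of the 10 listed chemokines that ACKR1 binds had counts enough to be tested over the 12 libraries. The highest values were 0.768 CPM for Cxcl5, 0.630 CPM for Ccl17 and 0.498 CPM for Ccl12, and Ccl2 reached at most 0.294 CPM.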

How the data were processed

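The authors deposited whole-number counts for every gene, and FPKM columns for the same 12 libraries. HISAT2 2.0.4 and GRCm38/mm10 appear in the submitters' processing notes, and an Illumina mRNA kit in the labels' protocols. The counter, annotation release and use of strand: not given in the sources used here. FPKM was not tested: the gene lengths it implies matched GENCODE M21 (summed transcripts, within 0.1%) for only 9.81% of 9925 genes, so levels per length are CPM per kilobase of M21 exons.

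The test was that of edgeR 4.0.16 under R 4.3.3 (TMM, filterByExpr, robust quasi-likelihood, two-sided), with DESeq2 1.42.0 and limma 3.58.1 as alternatives. One fit held 3 groups of 4 libraries, and another the counts of each CCI mouse summed over sides against naive mice. SE are the fold change over the root of F. Scripts were tested on simulated data. The members, lists and tests were chosen with earlier results of these data known. The genes named are the members, per list up to 3 genes of smallest p, and red cell markers at or near 0. The 5 genes of highest r and neighbours are named too. Alas1, Selp, Tmsb10, Vcam1, Nr2f2, Spock2, Gypc, Ermap, Aqp1 and the receptor and ligand genes were named after their values were seen. So were Sptb, Slc2a1, Xk and Tfrc. Numbers on the library codes were read as marking both sides of 1 mouse; deviations of same-numbered sides correlated at -0.14 to 0.06. Promoters are RefSeq's on GRCm38.p6, and all 6 members were matched by symbol. Some listed genes are not reported here. Expected counting error covers counting only.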

Additional observations from a re-analysis of the deposited data

Results flagged for a closer look

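In each group 1 library stood far from the other 3 in Ackr1. It was contralateral 4 at 46.9 CPM, ipsilateral 4 at 35.9 CPM and naive 2 at 44.3 CPM. The gap to the next library took 0.979, 0.984 and 0.995 of the group's range. Ackr1 was chosen for this split, so that these values describe it and test nothing.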

How the results depend on the processing

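No tested member passed under any alternative, and of the values recomputed 392 stayed the same, 25 moved and 9 reversed. A fold change stayed the same if it kept its direction and side of the threshold. A count of genes passing did if it changed within a set factor, and a mean CPM if it shifted by less than its SD. Gene counts moved from 0. DESeq2 called 3 genes for contralateral minus naive, 9 for ipsilateral minus naive and 31 for CCI minus naive mice. Fits of only the groups compared called 1 and 7 for the first 2, and no low count filter gave 5 for CCI minus naive mice. The replicate block called 1 gene for each comparison with naive and 0 between the sides, also with CCI libraries only; it changed no member's call, and numbers shared with naive libraries pair nothing. Leaving out 1 library gave 0 to 2 genes for contralateral minus naive, 0 to 1 for ipsilateral minus naive and 0 to 159 between the sides, and leaving out 1 mouse 0 to 6 for CCI minus naive. Without both libraries of CCI mouse 2, an alternative added after seeing the data, the counts were 1, 4 and 286 for the first 3 comparisons, and without those of mouse 4 they were 3 and 3 for the comparisons with naive. Over single left-out libraries, the log2 fold change for contralateral minus naive ranged from -0.049 to 0.24 for Hba-a1 and from -0.23 to 0.037 for Hbb-bs, and that of Alas2 for contralateral minus ipsilateral from -0.057 to 0.28. Without both libraries of 1 CCI mouse, Hba-a1 had -0.049 to 0.24 and Hbb-bs -0.23 to 0.037 for contralateral minus naive, and Alas2 0.066 to 0.33 for contralateral minus ipsilateral. The causes were not tested. Depth limits Alas2, at 18 to 54 counts, and Ackr1, at 9 to 36 counts in 9 of 12 libraries, the most.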
